A study of Mus musculus with 6 samples.

Results

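The genes described here are 10 that encode the subunits of the transcription factor NF-kB and proteins that restrain it or work with it. Nfkb1, Nfkb2, Rel, Rela and Relb encode the subunits, Nfkbia, Nfkbib, Nfkbie and Nfkbiz encode IkB proteins, and the last gene is Tnfaip3. The 10 genes were looked up by exact gene symbol in the platform's annotation, and the brightest probe set over the 6 arrays was to stand for each gene. Of the 10 genes, 9 had a probe set paired with them alone, 1 each, among 19938 genes and 28853 probe sets in the whole table. Nfkb1 was not analysed here. All 9 were found by Entrez identifier in RefSeq (GRCm38.p6).

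Expression was measured in double-positive (DP) thymocytes, the stage of T cell development in the thymus that carries both the CD4 and the CD8 coreceptor. The 3 knockout (KO) arrays came from C57BL/6 mice aged 3 weeks that are labelled as Hdac3 knockouts, and the 3 wild-type (WT) arrays from C57BL/6 mice of the same age, and neither group was treated. The series names the knockout mice after Lck and Hdac3, and the sources used here give neither the driver of the deletion nor the part of Hdac3 it removes. Per the series' design text, each genotype's RNA was a pool from 2 mice and there were 3 biological replicates. How mice were divided over arrays is not said, so p-values here cover the spread among these 6 arrays, which may be technical.

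NF-kB is a family of dimers built from 5 related proteins. In resting cells IkB proteins hold most dimers in the cytoplasm, and signals from antigen receptors, tumour necrosis factor (TNF) receptors and Toll-like receptors activate the IkB kinase complex (IKK), which marks the IkB proteins for destruction and frees the dimers. A slower branch, through the NF-kB-inducing kinase, processes the Nfkb2 product and releases it with RelB. In thymocytes the pathway is known for its part in survival and in selection by the T cell receptor. Several of its own components are known NF-kB target genes, Nfkbia and Tnfaip3 among them, which gives the pathway its feedback.

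Promoter sequences are shown for 6 of the genes because NF-kB is known to act on several of its own genes, and because Rel, the gene that passed the test below, can so be set beside others that did not. RefSeq promoter windows of GRCm38.p6 matched 7 of the 10 genes with 10 windows, and the windows of Nfkb1, Relb and Nfkbiz were not analysed here. Each is the 250 bases before a start site, read 5′ to 3′ on the gene's strand, and capitals mark matches on either strand to the kappa-B consensus, merged where matches overlap.

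Rel (chr11:23770970-23771219, minus strand): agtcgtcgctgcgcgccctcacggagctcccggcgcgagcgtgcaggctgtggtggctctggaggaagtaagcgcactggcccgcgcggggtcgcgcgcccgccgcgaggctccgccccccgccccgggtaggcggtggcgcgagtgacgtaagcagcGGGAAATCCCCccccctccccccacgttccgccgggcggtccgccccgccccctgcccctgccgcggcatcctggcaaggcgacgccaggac
Rela (chr19:5637291-5637540, plus strand): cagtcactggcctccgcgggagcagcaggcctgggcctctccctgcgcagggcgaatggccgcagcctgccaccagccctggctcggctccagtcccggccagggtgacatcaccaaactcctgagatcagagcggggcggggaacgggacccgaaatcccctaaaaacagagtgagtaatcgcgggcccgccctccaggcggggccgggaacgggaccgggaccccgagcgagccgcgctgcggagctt
Nfkb2 (chr19:46304487-46304736, plus strand): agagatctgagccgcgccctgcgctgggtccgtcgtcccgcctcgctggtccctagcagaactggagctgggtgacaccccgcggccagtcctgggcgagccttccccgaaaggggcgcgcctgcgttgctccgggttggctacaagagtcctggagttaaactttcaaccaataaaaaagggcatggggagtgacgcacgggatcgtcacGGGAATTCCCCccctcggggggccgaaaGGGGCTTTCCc
Nfkbia (chr12:55492648-55492897, minus strand): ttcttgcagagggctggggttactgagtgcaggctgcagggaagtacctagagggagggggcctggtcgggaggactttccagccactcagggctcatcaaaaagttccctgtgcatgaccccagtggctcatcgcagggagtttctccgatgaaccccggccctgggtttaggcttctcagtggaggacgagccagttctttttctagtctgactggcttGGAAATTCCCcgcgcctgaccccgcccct
Nfkbie (chr17:45555450-45555699, plus strand): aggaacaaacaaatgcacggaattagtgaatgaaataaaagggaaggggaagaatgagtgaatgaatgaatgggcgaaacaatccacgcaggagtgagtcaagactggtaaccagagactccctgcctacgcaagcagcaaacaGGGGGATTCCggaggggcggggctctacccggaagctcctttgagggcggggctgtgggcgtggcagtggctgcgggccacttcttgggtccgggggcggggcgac
Tnfaip3 (chr10:19015411-19015660, minus strand): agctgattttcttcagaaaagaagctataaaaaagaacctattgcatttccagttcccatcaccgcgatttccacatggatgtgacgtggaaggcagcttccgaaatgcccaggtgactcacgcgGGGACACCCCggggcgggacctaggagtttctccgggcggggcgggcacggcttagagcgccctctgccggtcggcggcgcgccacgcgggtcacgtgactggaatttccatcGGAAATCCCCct

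A match was found for 5 of the 7 genes, in 7 of their 10 windows, against 8.23% of all 27025 genes and 7.25% of all 32851 windows in the table. Rel carried 1 run, GGGAAATCCCC, of 2 overlapping matches, 92 to 82 bases before its start site. The Nfkb2 window shown held GGGAATTCCCC, of 2 overlapping matches, and GGGGCTTTCC, and its other windows held 1 match each. Nfkbia held GGAAATTCCC between 29 and 20 bases before its start, Nfkbie GGGGGATTCC between 106 and 97 bases, and Tnfaip3 GGGACACCCC and GGAAATCCCC, the last only 3 bases from the start at its nearer end. These letters were not in the windows of Rela and Nfkbib, nor in a further window of Tnfaip3. A match describes the sequence and is no measurement of binding.

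Hdac3 signal followed the labels. It had log2 values of 8.28, 8.32 and 8.32 on the KO arrays, against 9.40, 9.42 and 9.44 on the WT arrays (log2 difference KO minus WT -1.12, SE 0.08, limma adjusted p = 0.00035). Which of its probes lie in the deleted part was not analysed here. The 10 measured DP markers averaged between 10.76 and 10.87 on the KO arrays and between 10.81 and 10.98 on the WT arrays, and Cd1d1 was the marker that changed, with a difference of -0.65. Markers of neutrophils stood apart on KO array 2, where their mean was 5.96, against 4.52 and 4.58 on the other KO arrays and 4.37 to 4.53 on the WT arrays. All 12 neutrophil markers had positive differences and 0 passed the test, with 2 at an unadjusted p under 0.05 (limma), and 0 had a signal above the median probe set. Markers of mature single-positive T cells averaged 6.32 to 6.42 on the KO arrays and 6.52 to 6.78 on the WT arrays. Of these 9, 2 fell, Il7r by 1.19 and Ikzf2 by 1.23, and 7 did not pass. Positive differences were found for 3 of the 9, Ccr7 (0.35), Klf2 (0.20) and Foxp3 (0.16). Erythroid markers averaged 5.23 to 5.45 in KO and 4.88 to 5.20 in WT. All 5 measured had positive differences, and 1, Klf1, was called higher (limma adjusted p = 0.047). None of these 5 had a signal above the median probe set, and 5 of the 10 listed had no probe set of their own. The means of macrophage and dendritic cell markers (4.88 to 5.07 in KO, 4.72 to 4.91 in WT), of B cell markers (4.71 to 4.77 in KO, 4.65 to 4.74 in WT) and of thymic stroma markers (5.61 to 5.74 in KO, 5.48 to 5.65 in WT) overlapped between genotypes, and 1 of 11 stroma markers, Epcam, fell by 0.37 (limma adjusted p = 0.044). The part of these cells in the results below was not tested. Signal was compressed on the KO arrays, with interquartile ranges of 3.06 to 3.25 on the log2 scale, against 3.29 to 3.49 on the WT arrays. Probe sets with a signal like that of the 9 genes had mostly negative differences: of 8561 probe sets between the dimmest and the brightest of the 9, 6330 were lower in KO and their median was -0.13, while the median over all 23410 probe sets tested was 0.02.

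Of the 9 NF-kB genes measured, Rel alone passed the test. Rel was 1.37-fold higher in KO, and the other 8 had differences between -0.26 and 0.20 on the log2 scale that did not pass (limma, Benjamini-Hochberg adjusted over all 23410 probe sets, threshold 0.05). The 1 gene called higher stands against 1.75% of all probe sets called higher, and the 0 called lower against 4.04%, 5.79% in all. Rela had an unadjusted p under 0.05 in the lower direction. Across all probe sets 409 were called higher and 946 lower, and 197 higher and 1863 lower when each array was centred on its median, which moved the median difference to -0.08. For 4 of the 9 genes the KO and WT values were fully separate, 2 with KO above WT and 2 with KO below WT, while 30.0% of all probe sets did not overlap, 13.5% above and 16.5% below. An exact test of 3 arrays against 3 cannot give a p under 0.1, so no such test was run for single genes. In RNA from many cells, fewer cells that express a gene and less RNA per cell cannot be told apart.

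**Figure D1:**
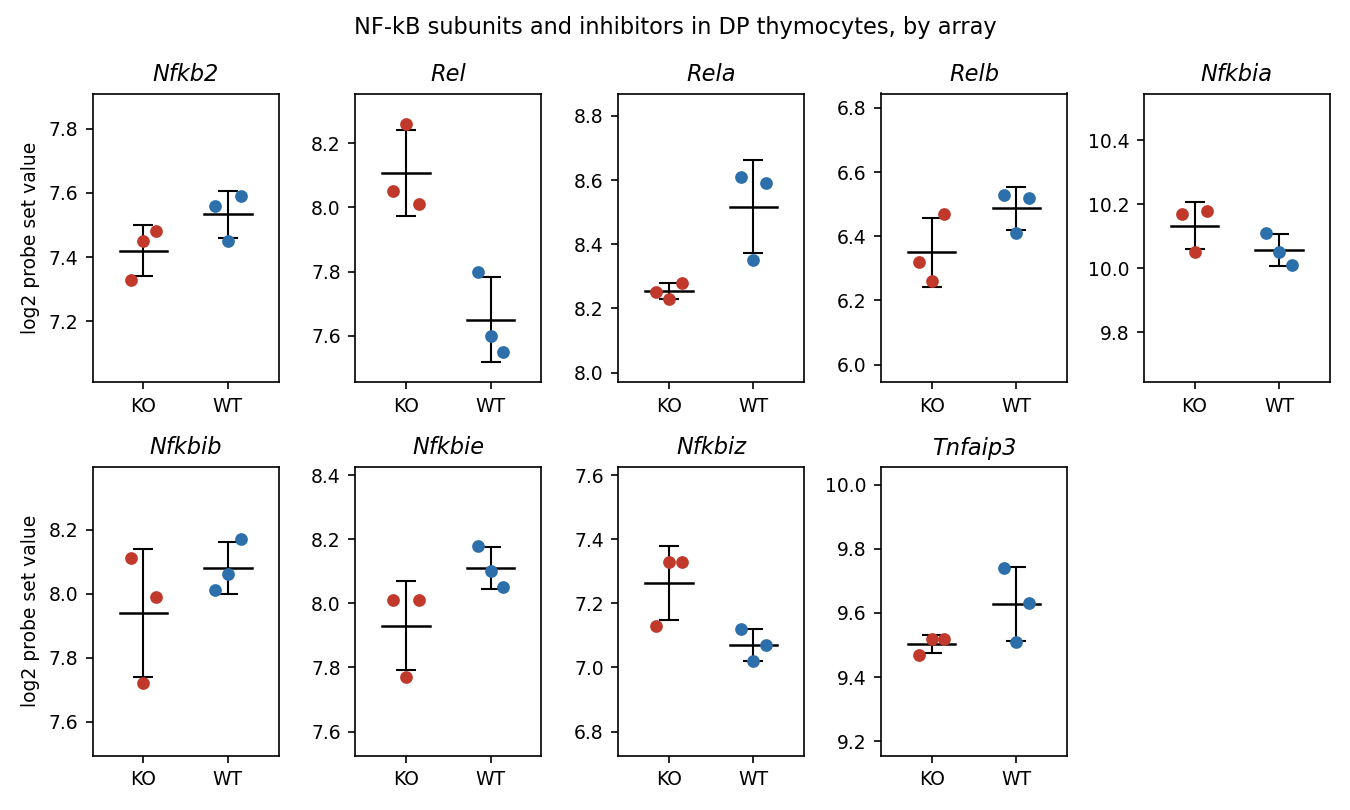
Log2 probe set values (vertical axes, each spanning the same range) of the 9 measured genes, with 1 point per array in the order of array number, a line for the mean and bars for the SD (n = 3 each), KO in red and WT in blue. The KO points of Rel, at 8.01 to 8.26, lie above the WT points at 7.55 to 7.80, while the points of Nfkb2, Relb, Nfkbia, Nfkbib and Tnfaip3 overlap between genotypes.

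Among the subunits, Rel encodes c-Rel, a subunit with a transactivation domain that is largely restricted to blood cells and known for its role in T cell activation. Rel had log2 values of 8.05, 8.26 and 8.01 on KO arrays 1 to 3, against 7.80, 7.60 and 7.55 on WT arrays 1 to 3. All KO arrays were above all WT arrays, with a gap of 0.21 between the nearest of them, and KO array 2 was the highest. The means were 8.11 ± 0.14 in KO and 7.65 ± 0.13 in WT (SD, n = 3 each), a log2 difference of 0.46 (SE 0.11, 95% interval 0.21 to 0.70, limma adjusted p = 0.043), which put Rel at rank 1095 by p among the probe sets tested. The 1000 probe sets nearest to Rel in signal had a median difference of -0.17, so Rel lay 0.63 above its neighbours in signal.

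The call on Rel was close to the threshold. Each array left out in turn, KO array 1, 2 or 3 or WT array 1, 2 or 3, ended it (limma adjusted p 0.057 to 0.14), with the difference at 0.38 without KO array 2 and up to 0.53 without WT array 1. KO array 2, the highest for Rel, was also the array with raised neutrophil markers. With quantile normalization the difference was 0.59 (limma adjusted p = 0.019) and with cyclic loess 0.58 (limma adjusted p = 0.019), and with median centring it was 0.36 and did not pass (limma adjusted p = 0.084). Quantile normalization without KO array 2 gave 0.49 (limma adjusted p = 0.052).

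Rela encodes p65, the transactivating subunit of the most common NF-kB dimer. It had log2 values of 8.25, 8.23 and 8.28 on the KO arrays, against 8.61, 8.35 and 8.59 on the WT arrays. All KO arrays were below all WT arrays, but WT array 2 was only 0.06 above the nearest KO array. The difference was -0.26 (SE 0.10, 95% interval -0.48 to -0.04) and did not pass (limma adjusted p = 0.15), and its neighbours in signal had a median of -0.15. With quantile normalization the difference was -0.13 (limma adjusted p = 0.54). Within each array the difference between Rel and Rela is free of a shift of the whole array, but not of the compression of signal on the KO arrays. This difference was 0.72 larger in KO than in WT on average, with the KO arrays 0.60 to 0.90 above the WT mean and the WT arrays between -0.18 and 0.12 around it. This pair was chosen after its values were seen and was not tested.

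Nfkb2 encodes the precursor protein of the slower branch, and Relb the subunit that pairs with its processed product. Nfkb2 had log2 values of 7.33, 7.45 and 7.48 on the KO arrays, against 7.56, 7.45 and 7.59 on the WT arrays, and the groups overlapped through WT array 2. Its difference was -0.11 (95% interval -0.32 to 0.10, limma adjusted p = 0.47), and it turned to 0.025 with quantile normalization and to 4e-04 with cyclic loess. Relb had log2 values of 6.32, 6.26 and 6.47 on the KO arrays, against 6.53, 6.41 and 6.52 on the WT arrays, and KO array 3 lay among the WT values. Its difference was -0.14 (95% interval -0.35 to 0.08, limma adjusted p = 0.39).

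**Figure D2:**
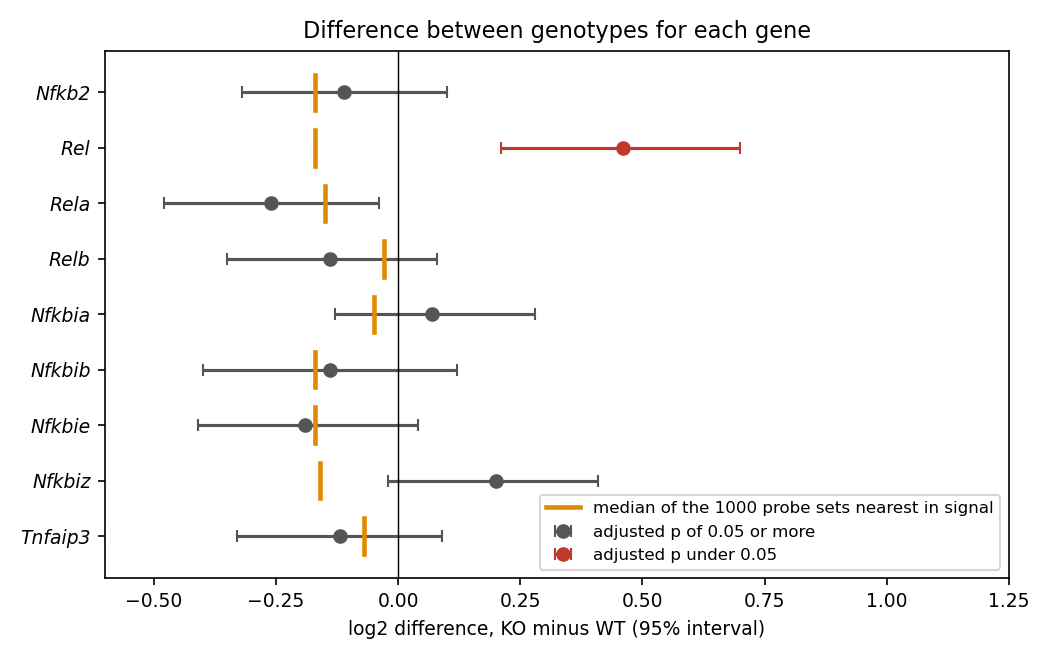
Log2 difference between genotypes, KO minus WT, for each of the 9 genes (points) with its 95% interval from limma (bars), red where the adjusted p was under 0.05. Orange ticks mark the median difference of the 1000 probe sets nearest in signal, which is below zero for every gene, and the interval of Rel, 0.21 to 0.70, lies wholly above zero and above its tick at -0.17.

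Among the inhibitors, Nfkbia encodes IkB alpha, the IkB protein that is degraded and resynthesised fastest. Nfkbia had log2 values of 10.17, 10.05 and 10.18 on the KO arrays, against 10.11, 10.05 and 10.01 on the WT arrays, and the groups overlapped. The difference was 0.07 (SE 0.09, 95% interval -0.13 to 0.28, limma adjusted p = 0.64), and it was -0.028 after median centring. As a fold, the interval runs from 0.915 to 1.21 times the WT signal.

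Nfkbib and Nfkbie encode IkB beta and IkB epsilon, cytoplasmic inhibitors that are known to respond more slowly. Nfkbib had log2 values of 8.11, 7.72 and 7.99 on the KO arrays, against 8.01, 8.06 and 8.17 on the WT arrays. The groups overlapped, and the low value belonged to KO array 2: the difference was -0.14 (95% interval -0.40 to 0.12, limma adjusted p = 0.47) and -0.03 without that array. Nfkbie had log2 values of 8.01, 7.77 and 8.01 on the KO arrays, against 8.18, 8.10 and 8.05 on the WT arrays. All KO arrays were below all WT arrays, by 0.04 at the nearest, and KO array 2 was again the lowest. The Nfkbie difference was -0.19 (95% interval -0.41 to 0.04, limma adjusted p = 0.28), close to the -0.17 of its neighbours in signal, and -0.10 without KO array 2. Quantile normalization without KO array 2 turned Nfkbib to 0.074 and Nfkbie to 0.0036.

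Nfkbiz encodes IkB zeta, an atypical nuclear IkB protein that works with NF-kB at a subset of target genes. It had log2 values of 7.13, 7.33 and 7.33 on the KO arrays, against 7.12, 7.02 and 7.07 on the WT arrays. The KO arrays were above the WT arrays, but KO array 1 and WT array 1 were nearly equal. The difference was 0.20 (SE 0.10, 95% interval -0.02 to 0.41) and did not pass (limma adjusted p = 0.24). Nfkbiz lay 0.36 above its neighbours in signal, second to Rel among the 9, and its difference was 0.31 with quantile normalization (limma adjusted p = 0.12) and 0.09 with median centring (limma adjusted p = 0.61).

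Tnfaip3 encodes a ubiquitin-editing enzyme that removes activating ubiquitin chains from proteins upstream of IKK. Its log2 values were 9.47, 9.52 and 9.52 on the KO arrays, against 9.74, 9.51 and 9.63 on the WT arrays, and WT array 2 lay among the KO values. The difference was -0.12 (95% interval -0.33 to 0.09, limma adjusted p = 0.44). Replicate spread over all 9 genes was small, with SDs of 0.02 to 0.20 in KO and 0.05 to 0.15 in WT. The median difference of the 9 was -0.12, beside -0.13 for all probe sets in the same range of signal. That median moved with the scaling, to -0.01 with quantile normalization, -0.02 with cyclic loess, -0.22 with median centring and 0 with quantile normalization without KO array 2.

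**Figure D3:**
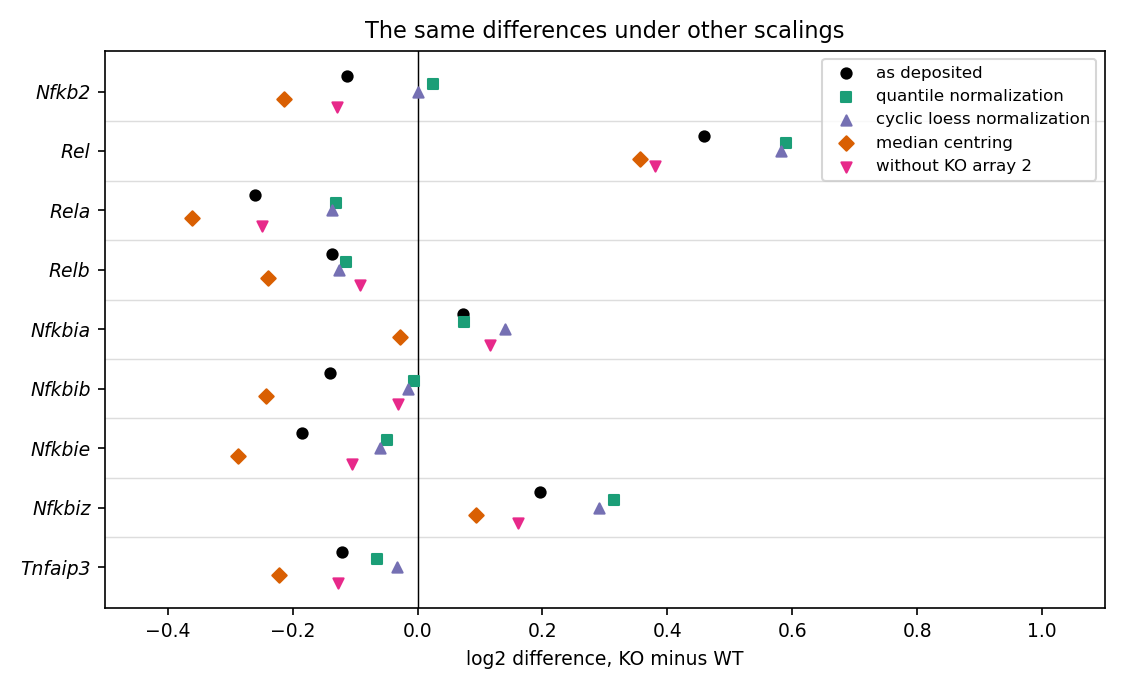
Log2 difference between genotypes, KO minus WT (horizontal axis), for each of the 9 genes under 5 treatments of the data, 1 marker each. Rel stays between 0.36 and 0.59 and Nfkbiz between 0.09 and 0.31, Nfkbia turns below zero with median centring, and Nfkb2 moves to zero or just above it with quantile normalization and cyclic loess.

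Genes with profiles like that of Rel were sought among 9869 genes of above-median signal, by the distance between profiles over the 6 arrays, each centred on its own mean. The nearest 5 were Mef2a, a transcription factor of the MADS box family, Wdr33, a subunit of the polyadenylation machinery, Macf1, which links actin and microtubules, Laptm5, a lysosomal membrane protein of blood cells, and Ccnl1, a cyclin linked to splicing. Their distances were 0.14 to 0.16. Their differences between genotypes, 0.41 to 0.47, lie near that of Rel through the choice by distance, and this is a description of 6 arrays only. Mef2a and Macf1 were not called (limma adjusted p = 0.05 and 0.052).

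The wider pathway was described with 7 lists of genes by role, 120 of whose 128 genes had a probe set of their own. Of these 120, 12 were called higher and 7 lower in KO, 15.8% in all against 5.79% of all probe sets. Of all probe sets 1.75% were called higher and 4.04% lower. In the list counts below, rose and fell mean called higher and called lower in KO. Calls were more frequent between the dimmest and the brightest of the measured NF-kB genes, where 852 of 8561 probe sets were called. The 120 genes were not compared with probe sets of matched signal. The lists were chosen with earlier results of these data known, so their share of calls is a description only. The higher count was 8 without KO array 1, 4 without KO array 2, 5 without KO array 3, 4 without WT array 1 and 6 without WT array 2, and the lower count was 4, 3 and 3 without KO array 3, WT array 1 and WT array 2. List means per array were higher in KO without overlap for target genes (6.23 to 6.31, WT 5.92 to 6.06) and receptors (6.29 to 6.32, WT 6.03 to 6.21). The same held for ligands (5.11 to 5.22, WT 4.88 to 5.00). They were lower in KO for the brakes (7.59 to 7.64, WT 7.66 to 7.74). The means of the IKK step, the T cell receptor branch and the immediate-early genes overlapped. These means were not compared with matched signal, and no list was tested as a set.

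Upstream of the IkB proteins, 2 of 20 kinases and adaptors of the IKK step were called higher and 0 lower. At an unadjusted p under 0.05 (limma) 3 were higher and 5 lower, and the list's median was -0.08. Traf1, an adaptor of TNF receptors and a known NF-kB target, had log2 values of 6.69, 6.75 and 6.62 in KO, against 5.68, 5.60 and 5.64 in WT (log2 difference 1.05, SE 0.09, limma adjusted p = 0.00062), and passed in every fit that left out 1 array. Map3k8, a kinase that links TNF receptors to MAP kinases, rose by 0.42 (limma adjusted p = 0.036), and its call held only without WT array 3 among those fits and was lost with median centring (0.32, limma adjusted p = 0.088). In the branch from the T cell receptor to IKK 0 of 9 genes passed, with 2 higher and 1 lower at an unadjusted p under 0.05 (limma). The nearest were Prkcq, the protein kinase C of the T cell synapse, at 0.31 (limma adjusted p = 0.061) and Cflar, the inhibitor of caspase activation, at 0.34 (limma adjusted p = 0.091). Prkcq passed with cyclic loess, with dim probe sets left out, with an intensity trend and robust prior and with array weights. Cflar passed with quantile normalization, with cyclic loess and with an intensity trend and robust prior.

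Among 20 other IkB family genes and brakes of the pathway, 2 fell and 0 rose, with 3 higher at an unadjusted p under 0.05 (limma) and a median of -0.10. The deubiquitinase Otud7b fell by 0.73 (limma adjusted p = 0.028) and Rnf11, a partner of the Tnfaip3 product, by 0.72 (limma adjusted p = 0.036). Otud7b was not called without WT array 1 or 2, nor Rnf11 without KO array 3 or any WT array, nor either with quantile normalization, nor Rnf11 with cyclic loess.

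Of 14 ligands, 3 were called higher and 0 lower. Positive differences were found for 10 of them, and 4 were higher and 1 lower at an unadjusted p under 0.05 (limma). Tnf, the founding ligand of the TNF family, had log2 values of 7.13, 7.35 and 7.15 in KO, against 5.86, 5.97 and 6.23 in WT, 2.28-fold (log2 difference 1.19, SE 0.12, limma adjusted p = 0.0011). Il18, a cytokine of the interleukin-1 family, rose by 0.68 and Lta, lymphotoxin alpha, by 0.54 (limma adjusted p = 0.032 and 0.026). With quantile normalization neither was called, and with cyclic loess Lta was not. Only 3 of the 14 ligands had a signal above the median. Of 18 receptors Il18r1, a chain of the interleukin-18 receptor, rose by 1.48 (SE 0.16, limma adjusted p = 0.0017) and Tnfrsf18, a TNF receptor of activated and regulatory T cells, fell by 0.50 (limma adjusted p = 0.025). The receptors' median was 0.17, with 12 of the 18 differences positive. At an unadjusted p under 0.05 (limma) 5 receptors were higher and 1 lower. Il18r1 was dim, with a mean signal of 4.35 over the 6 arrays, below the median of 5.77 over the probe sets tested. Tnfrsf18 was not called without KO array 2 or 3 or WT array 1 or 2, Il18 without any KO array or WT array 1, and Lta without KO array 1 or 2 or WT array 1 or 2.

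Of 28 textbook NF-kB target genes 6 rose, 2 fell and 20 did not pass, with a median of 0.20. A signal above the median was found for 14 of the 28. The 1000 probe sets nearest in signal had a median difference of 0.16 for Cxcl10 (mean signal 5.30) and of -0.17 for the brighter Birc3 (7.34). What this drift with signal adds to the list's median was not tested. Il2ra, the interleukin-2 receptor alpha chain, had log2 values of 7.92, 7.36 and 8.09 in KO, against 6.23, 4.99 and 5.33 in WT (log2 difference 2.28, SE 0.29, limma adjusted p = 0.0033). The cell type markers held no list for thymocyte stages before DP. The part of such cells in the Il2ra values was not tested. Myc, the growth regulator, had 6.84, 6.18 and 6.81 in KO, against 7.95, 7.91 and 7.76 in WT (log2 difference -1.26, SE 0.17, limma adjusted p = 0.0035). Besides Tnf, Traf1 and Lta, the rises were those of the adhesion molecule Icam1 (0.62) and the factor Irf1 (0.45), and Sod2, the mitochondrial superoxide dismutase, fell by 0.42; these last 3 were named after their values were seen, and each call was lost without KO array 2 or 3 or WT array 1 or 2, that of Irf1 also without KO array 1. Sod2 was not called with quantile normalization (-0.28, limma adjusted p = 0.10) or cyclic loess (-0.29, limma adjusted p = 0.088), nor Irf1 with median centring (0.35, limma adjusted p = 0.071). Quantile normalization without KO array 2 also ended the calls on Map3k8, Rnf11, Tnfrsf18, Il18, Lta, Icam1, Irf1 and Sod2. Calls on Traf1, Tnf, Il18r1, Il2ra and Myc held in all 6 fits that left out 1 array.

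**Figure D4:**
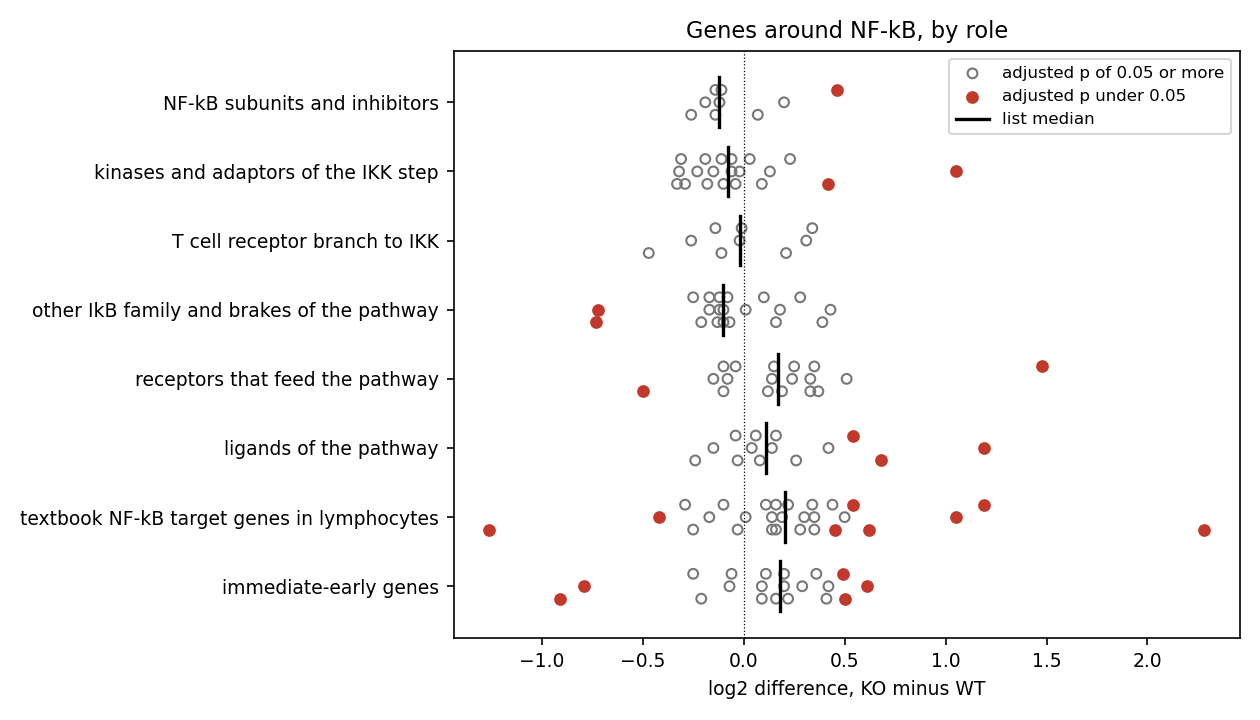
Log2 difference between genotypes, KO minus WT, for the 9 NF-kB genes (top row) and the 7 lists of pathway genes, 1 point per gene, filled where the adjusted p was under 0.05, with a bar at each list's median. Among the 9, Rel is the filled point at 0.46, while Il2ra at 2.28, Il18r1 at 1.48, Tnf at 1.19 and Myc at -1.26 lie farther out.

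Immediate-early genes respond within minutes to stimulation and to the handling of cells, and several share stimuli with Nfkbia and Nfkbiz. Of 20 measured, 3 rose and 2 fell, and their mean was 6.81, 7.06 and 6.93 on KO arrays 1 to 3, against 6.83, 6.76 and 6.95 on WT arrays 1 to 3, so the groups overlapped. Egr2 and Egr1, zinc finger factors induced by the T cell receptor, fell by 0.91 and 0.79 (limma adjusted p = 0.0023 and 0.0024). Ppp1r15a, a phosphatase subunit of the stress response, rose by 0.61 and Fosb, an AP-1 subunit, by 0.50 (limma adjusted p = 0.043 and 0.041). Ppp1r15a was called only without WT array 3 among the fits that left out 1 array, and Fosb in 0 of 6. With quantile normalization neither was called, and Fosb was also not called with cyclic loess or median centring. Zfp36, which encodes an RNA-binding protein that shortens the life of Tnf mRNA and was named after its values were seen, rose by 0.49 (limma adjusted p = 0.049) and was likewise called only without WT array 3 among those fits, and not with median centring. Quantile normalization without KO array 2 ended the calls on Ppp1r15a, Fosb and Zfp36, the test of all probe sets those on Ppp1r15a and Zfp36, and the replicate block that on Ppp1r15a. What handling of the cells adds to the values of Rel was not tested.

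**Figure D5:**
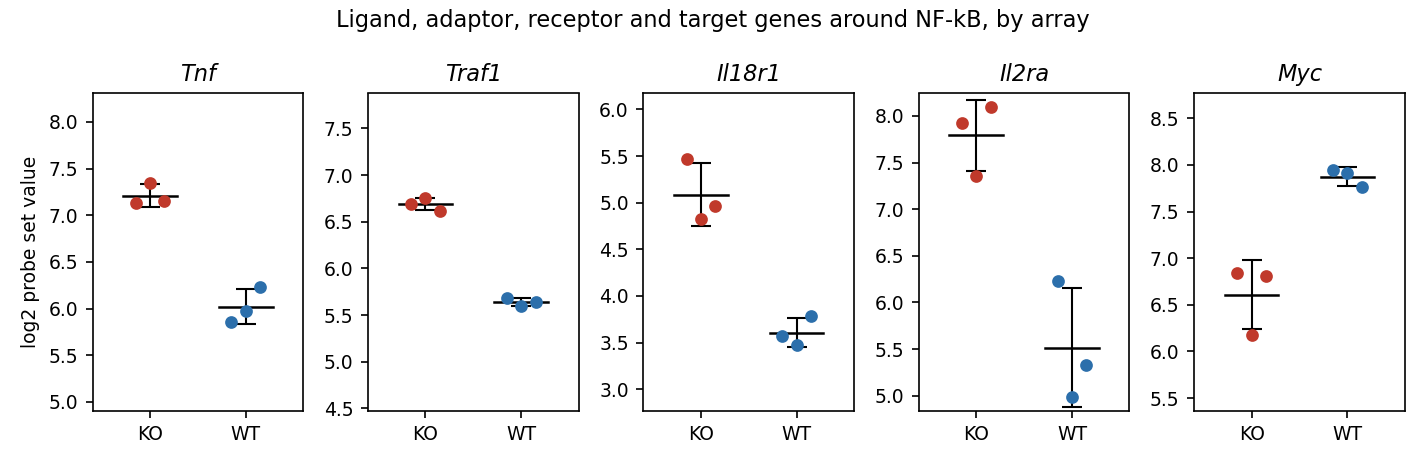
Log2 probe set values (vertical axes, each spanning the same range) of 5 pathway genes, 1 point per array, with a line for the mean and bars for the SD (n = 3 each), KO in red and WT in blue. Tnf, Traf1, Il18r1 and Il2ra are higher on every KO array and Myc is lower on every KO array, without overlap.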

How the data were processed

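The authors deposited 1 table of probe set values for the 6 arrays, taken here as log2 from their range. The labels' protocols name an Affymetrix whole-transcript sense-strand labelling kit. The sources used here name no background correction, normalization or probe summary. Titles gave groups and replicate numbers. Gene symbols came from the platform's annotation (21789 with 1 symbol, 1621 with several, 5443 with none).

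The 23410 probe sets with a symbol were fitted with limma 3.58.1 (lmFit, eBayes) in R 4.3.3 with 1 mean per group. Two-sided p-values were Benjamini-Hochberg adjusted over all of them, with a threshold of 0.05. The fit was tested on simulated data. The number of arrays limits precision: the median SE was 0.11.

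All measured members are named; of each pathway list, up to 4 called genes with the largest change, or the 2 with the smallest p. Profile likeness to the member with the smallest p was ranked by Euclidean distance. The members and lists were chosen with earlier results of these data known. Alternatives were quantile, cyclic loess and median scaling, a filter on dim probe sets, all 28853 probe sets, a robust prior with intensity trend, weights for arrays, a replicate block, the omission of each array, and quantile normalization without KO array 2. As each member had 1 probe set, the mean over its probe sets gave no other value.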

Additional observations from a re-analysis of the deposited data

How the results depend on the processing

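Rela, Relb, Nfkbiz and Tnfaip3 kept their direction and did not pass in any of the 15 alternatives. Rel stayed positive in all 15, and it was not called after median centring (0.36), with all probe sets tested (0.46, limma adjusted p = 0.053), with quantile normalization without KO array 2 (0.49) or with the replicate block (0.46, limma adjusted p = 0.055), which left 0 NF-kB genes called higher in those settings. The direction reversed for Nfkb2 with quantile normalization (0.025) and cyclic loess (4e-04), for Nfkbia with median centring (-0.028), and for Nfkbib (0.074) and Nfkbie (0.0036) with quantile normalization without KO array 2; the cause was not tested. With 1 array left out, the log2 difference was 0.38 to 0.53 for Rel, -0.34 to -0.21 for Rela, -0.15 to -0.07 for Nfkb2, -0.20 to -0.09 for Relb, 0.05 to 0.12 for Nfkbia, -0.23 to -0.03 for Nfkbib, -0.23 to -0.10 for Nfkbie, 0.16 to 0.26 for Nfkbiz and -0.18 to -0.06 for Tnfaip3, with 0 calls in either direction in each such fit, which has fewer samples. Over all probe sets the higher calls numbered 197 with median centring, 778 with array weights, 149 with quantile normalization without KO array 2 and 114 to 651 with 1 array left out. The lower calls numbered 608 with quantile normalization, 1863 with median centring, 1507 with array weights, 288 with quantile normalization without KO array 2 and 345 to 1295 with 1 array left out. Of the pathway genes, 19 were called higher with an intensity trend and robust prior, 4 with quantile normalization without KO array 2 and 4 to 15 with 1 array left out, and 3 to 7 were called lower with 1 array left out. Whether same-numbered arrays were paired is not said. Deviations of same-numbered arrays from their group means correlated at 0.25, -0.07 and -0.03, and those of differently numbered arrays at -0.34 to 0.32. With 3 arrays per group these values cannot settle a pairing. The replicate block gave 344 higher and 818 lower calls over all probe sets. Signal above background was not analysed here, so the differences of dim genes, most ligands and Il18r1 among them, are the least certain.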
